A study of Mus musculus with 33 samples.

Results

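The genes of the constitutive proteasome were followed in interscapular brown fat of C57BL/6J mice, a depot that burns fuel to make heat, on a high-fat or a normal diet. The genes were taken by symbol, those beginning with Psma, Psmc or Psmd and those from Psmb1 to Psmb7, which leaves out the immunoproteasome genes Psmb8, Psmb9 and Psmb10. Of 36 such genes with a probe on the Illumina bead array, 29 were measured, meaning that a probe had a detection p under 0.01 on at least 3 of the 33 arrays, and the brightest such probe stood for the gene. They were among 9630 measured genes of 19057 with a probe. The other 7 genes were Psma1, Psma3, Psma6, Psma8, Psmc6, Psmd3 and Psmd6, whose probes did not meet that limit and are not reported on further. The symbol rule also took in Psmc3ip, a cofactor of meiotic recombination that is no proteasome subunit; it was counted among the 29.

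High-fat groups were sampled after 2, 4, 8, 20 and 24 weeks, and normal diet groups at week 0 and after the same weeks, which gave 11 groups of 3 arrays. The normal diet was the semi-purified diet AIN-76, and the high-fat diet was the same base with fat supplying 39.2 kcal% (20% fat and 1% cholesterol). Mice lived singly at 24 °C, and all 33 samples carry the same age label of 7 weeks. Whether the numbered replicates came from different animals is not stated, and the p-values cover only their spread, which may be technical.

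The proteasome is the barrel-shaped protease that destroys proteins tagged with ubiquitin. Its core particle stacks rings of alpha subunits, which gate the entry, around rings of beta subunits, of which Psmb5, Psmb6 and Psmb7 carry the cutting sites. A regulatory particle caps the core: its base holds a ring of ATPases (the Psmc genes) that unfold and feed in the substrate, and its lid holds Psmd14, the enzyme that cuts the ubiquitin chain off. In many cell types proteasome genes are raised together by the transcription factor Nfe2l1, which binds antioxidant response elements, and in brown fat of mice Nfe2l1 is known for raising proteasome activity in the cold. Interferon and immune cells swap the cutting subunits for Psmb8, Psmb9 and Psmb10, which gives the immunoproteasome. Of the 29 measured genes, 4 encode alpha subunits, 7 beta subunits, 5 ATPases, 3 other subunits of the base, 6 lid subunits and 3 chaperones that assemble the base (Psmd5, Psmd9 and Psmd10), beside Psmc3ip.

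Because Nfe2l1 acts through promoters, the upstream sequences of the 4 members with the largest average diet difference and of the cutting subunit Psmb6 are shown. They are the 160 bases before the RefSeq transcript start on GRCm38.p6, written 5′ to 3′ on the gene's strand. Capitals mark the antioxidant response element letters TGACNNNGC in Psmb5 and Psmb6, and the CCAAT box, read as CCAAT or on the other strand as ATTGG, in Psmb3 and Psmd14. The windows lie at chr11:97703274-97703433 (Psmb3, plus strand), chr14:54617996-54618155 (Psmb5, minus strand), chr11:70525197-70525356 (Psmb6, plus strand), chr11:80428455-80428614 (Psmd11, plus strand) and chr2:61711534-61711693 (Psmd14, plus strand).
Psmb3: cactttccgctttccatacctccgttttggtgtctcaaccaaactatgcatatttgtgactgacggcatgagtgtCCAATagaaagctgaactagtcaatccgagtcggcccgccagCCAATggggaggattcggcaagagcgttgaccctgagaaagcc
Psmb5: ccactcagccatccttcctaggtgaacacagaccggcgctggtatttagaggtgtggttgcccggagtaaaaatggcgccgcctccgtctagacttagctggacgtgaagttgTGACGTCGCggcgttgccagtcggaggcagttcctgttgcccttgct
Psmb6: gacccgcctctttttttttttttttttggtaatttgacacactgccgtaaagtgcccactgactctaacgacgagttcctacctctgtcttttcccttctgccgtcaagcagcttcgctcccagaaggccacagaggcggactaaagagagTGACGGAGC
Psmd11: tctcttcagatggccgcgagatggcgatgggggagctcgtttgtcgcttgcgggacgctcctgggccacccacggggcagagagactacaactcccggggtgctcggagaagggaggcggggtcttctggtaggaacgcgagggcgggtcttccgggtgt
Psmd14: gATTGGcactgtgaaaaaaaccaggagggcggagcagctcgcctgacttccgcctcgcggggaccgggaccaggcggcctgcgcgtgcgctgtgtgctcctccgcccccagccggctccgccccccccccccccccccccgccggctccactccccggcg
The element began 47 bases before the start in Psmb5 and 9 bases before it in Psmb6, and no capitals in Psmd11 means only that these letters are not in this window. Over the 250 bases before the start, searched on both strands, 24 of the 29 members had a window, 25 windows in all. TGACNNNGC was found in 4 of the 25 (16%), those of Psmb5, Psmb6, Psmd9 and Psmd12, against 10.2% of all 32851 windows. CCAAT was found in 9 of the 25 (36%), against 33.8% of all windows. Among the 8 windows of members that were lower on high-fat diet on average (below), 2 held TGACNNNGC and 3 held CCAAT. The matches describe letters and are not evidence of binding.

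Array medians ran from 129 to 183 intensity units, and 29.5% to 33.7% of probes were detected. There were 3 arrays in each group. Arrays of a group correlated at r of 0.977 to 0.996 across genes. Brown adipocyte markers were measured in 8 of 10 cases, Ucp1 and Cidea included, while Dio2 and Otop1 were not measured. The week 24 arrays stood apart from all others. On the first principal component (35.9% of the variance) they averaged 46.2 ± 0.873 on high-fat and 34.4 ± 1.56 on normal diet (SD, n = 3 each), against group means of -15.1 to 2.68 elsewhere. Among the core genes 1 array stood apart, high-fat replicate 1 of week 8: its median core deviation from its group mean was -0.2 log2 units, with 10 of 11 core genes below that mean, whereas its regulatory genes had a median deviation of 0.03. Several results that rest on these arrays are given with and without them. The spans and correlations over group means are given only with them.

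Over the 11 groups the proteasome genes had a smaller median span than all measured genes, a comparison not matched for signal level. The span between the lowest and highest group mean had a median of 0.47 log2 units over the 29 genes, against 0.73 over all measured genes, and the spread within groups (pooled SD) had a median of 0.10 against 0.17. Psmb2, a beta subunit, had the smallest span by its brightest probe, with group means of 12.98 to 13.19. Its second probe, detected on all 33 arrays, was less steady and averaged 12.35 in week 24 against 12.9 in week 20. The widest was that of Psmd14, with group means of 8.14 on high-fat diet at week 24 and 9.62 on normal diet at week 20. Psmd2 and Psmd9 each spanned 1.36, Psmd2 being a ubiquitin receptor scaffold of the base and Psmd9 a chaperone. Both lay near the detection limit, with Psmd2 detected on 22 and Psmd9 on 21 of the 33 arrays.

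On high-fat diet part of the constitutive proteasome was lower by small amounts on average, and no member rose. High-fat minus normal diet, averaged over the differences at the 5 weeks, passed for 9 of the 29 genes, all of them lower (limma with Benjamini-Hochberg adjustment over all 9630 genes, adjusted p under 0.05). Among all genes 27.1% passed, 11.7% lower and 15.4% higher. Where diets are compared, rose and fell mean higher and lower on high-fat than on normal diet. The difference lay below 0 in 25 of 29 members and in 49.3% of all genes, and the median was -0.09 for the members and 0 for all genes. Of the members, 10 were lower at all 5 weeks (Psma7, Psmb1, Psmb2, Psmb3, Psmb5, Psmb6, Psmc4, Psmc5, Psmd11 and Psmd14), a pattern seen in 11.1% of all genes, and 0 were higher at all 5 weeks (11.5% of all genes). For Psma7, Psmb5 and Psmb6 the lower mean at week 8 rested largely on high-fat replicate 1. Psma7 read 11.75 there, with 12.39 and 12.45 on the other high-fat arrays and a normal diet mean of 12.41. Psmb5 read 9.86 there, with 10.45 and 10.39 on the others and a normal diet mean of 10.42. Psmb6 read 12.12 there, with 12.61 and 12.51 on the others and a normal diet mean of 12.58. Some single-week differences behind this list were smaller than their SE. Examples are Psmb6 at week 2 (-0.02, SE 0.086), Psmd11 at week 4 (-0.01, SE 0.12) and Psmc5 at week 8 (-0.06, SE 0.10). In tissue RNA, fewer cells of a type and less RNA per cell cannot be told apart.

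**Figure D1:**
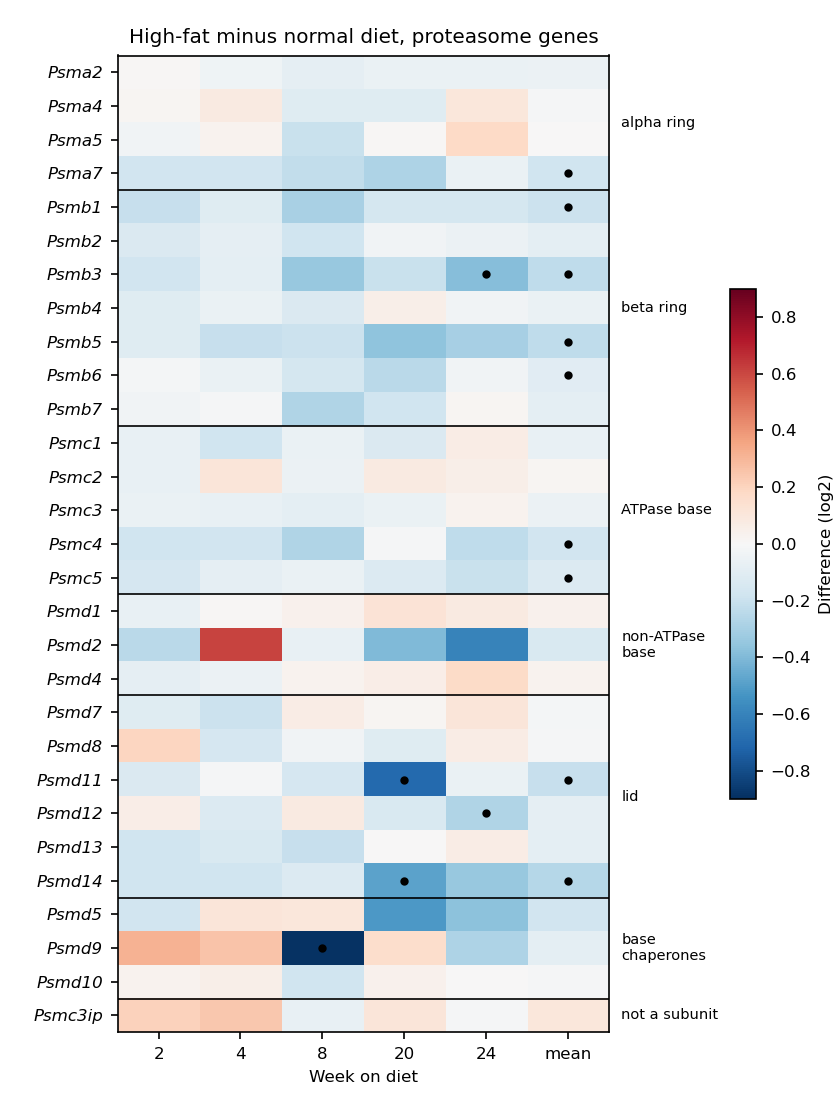
High-fat minus normal diet (log2 units, colour) for the 29 measured genes in rows, at weeks 2, 4, 8, 20 and 24 and as their mean, grouped by place in the complex. Dots mark differences that passed; the mean column holds 9 dots, all on lower values, and no single week holds more than 2.

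In the core particle 5 of 11 genes fell, 4 of 7 in the beta ring and 1 of 4 in the alpha ring, with a median of -0.09 over the 11. Psmb3, a non-cutting beta subunit, stood at 13.14, 12.99 and 12.94 on high-fat against 13.22, 13.17 and 13.2 on normal diet at week 2, and at 12.97, 13.07 and 12.96 against 13.19, 13 and 13.06 at week 4 (log2 intensity). At week 8 it stood at 12.43, 12.94 and 12.96 on high-fat against 13.08, 13.2 and 13.06 on normal diet, and at week 20 at 12.86, 12.71 and 13 against 13.17, 13.01 and 12.99. The high-fat arrays were all below the normal diet arrays at weeks 2, 8 and 24 and overlapped them at weeks 4 and 20. The average difference was -0.23 (SE 0.048, adjusted p = 0.000587), and it was -0.20 without the low week 8 array.

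Psmb5, which carries the chymotrypsin-like site and is the main target of proteasome inhibitor drugs, stood at 10.5, 10.5 and 10.34 on high-fat against 10.64, 10.51 and 10.54 on normal diet at week 2, and at 10.5, 10.43 and 10.29 against 10.65, 10.5 and 10.69 at week 4. At week 8 its high-fat arrays read 9.86, 10.45 and 10.39 against 10.5, 10.38 and 10.37 on normal diet. At week 20 they read 10.58, 10.44 and 10.22 against 10.98, 10.7 and 10.63, and at week 24 11.09, 11.05 and 11.09 against 11.45, 11.29 and 11.38. High-fat arrays lay below all normal diet arrays at weeks 2, 4, 20 and 24 (at week 4 by less than the second decimal) and overlapped them at week 8. The average difference was -0.23 (SE 0.052, adjusted p = 0.00159), and it was -0.20 without the low week 8 array. The other cutting subunits moved less: Psmb6, the caspase-like one, differed by -0.10 (SE 0.038, adjusted p = 0.0463), a call lost in 29 of 44 other settings, and Psmb7, the trypsin-like one, by -0.09 (SE 0.041, adjusted p = 0.0964). The 2 remaining core genes that passed, Psmb1 at -0.19 (SE 0.036) and the alpha subunit Psma7 at -0.18 (SE 0.054), are named after their values were seen. Psma5, another alpha subunit, differed by 0 (SE 0.033).

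In the regulatory particle 4 of 14 genes fell, 2 of 5 ATPases, 2 of 6 lid genes and 0 of 3 other base genes, with a median of -0.08. Psmd14, the deubiquitinase of the lid, had the largest average difference of the 29, -0.26 (SE 0.056, adjusted p = 0.00101). On high-fat diet it averaged 8.87 ± 0.139, 8.85 ± 0.169, 8.67 ± 0.123, 9.13 ± 0.071 and 8.14 ± 0.0317 at weeks 2, 4, 8, 20 and 24, against 9.05 ± 0.182, 9.03 ± 0.0572, 8.79 ± 0.289, 9.62 ± 0.122 and 8.48 ± 0.232 on normal diet (SD, n = 3 each). The groups did not overlap at weeks 20 and 24 and overlapped at weeks 2, 4 and 8. Psmd11, a lid scaffold subunit, differed by -0.21 (SE 0.052, adjusted p = 0.00385), most of it at week 20. The ATPases Psmc4 at -0.17 (SE 0.039) and Psmc5 at -0.12 (SE 0.047), named after their values were seen, completed the 9. The 3 base chaperones did not pass, nor did the ubiquitin receptor gene Psmd4 (0.03, SE 0.032) or the scaffold gene Psmd1 (0.04, SE 0.052).

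**Figure D2:**
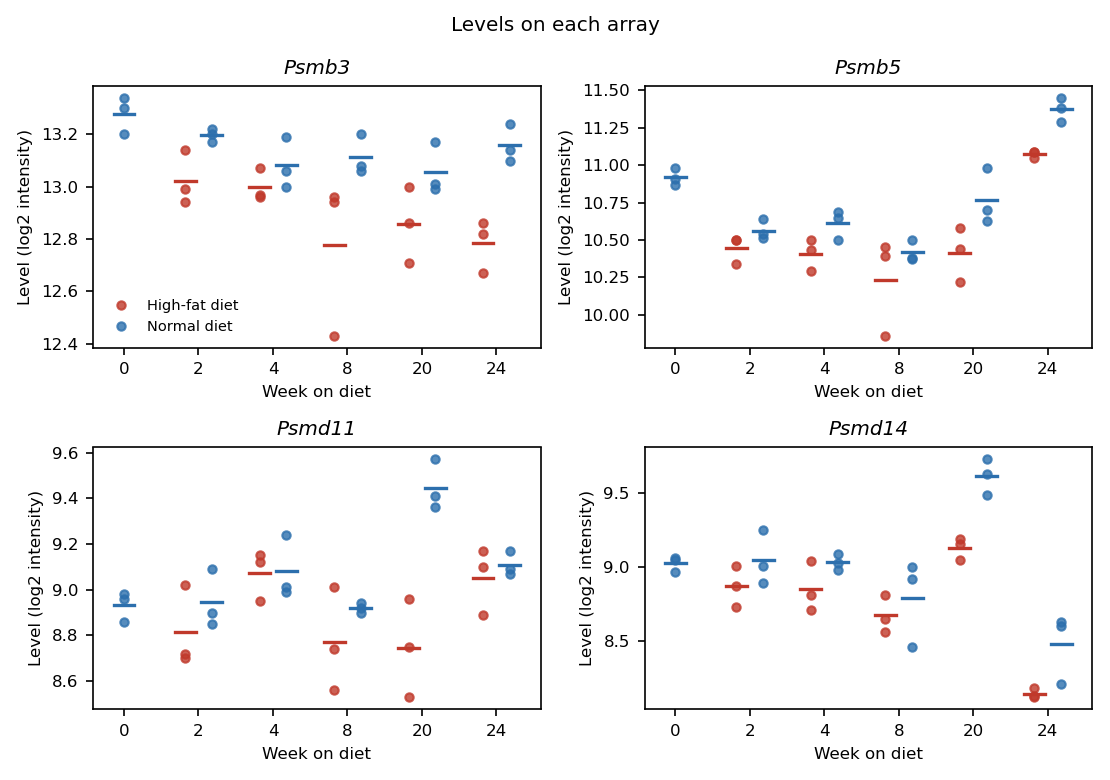
Level of Psmb3, Psmb5, Psmd11 and Psmd14 (log2 intensity) on each array by week, high-fat (red) left of normal diet (blue), with lines at group means; week 0 has normal diet only. The group means of Psmb3 and Psmb5 are lower on high-fat diet at all 5 weeks, with differences of -0.38 to -0.09 for Psmb3 and -0.36 to -0.11 for Psmb5, while the widest gap of Psmd11 is at week 20, with means of 8.75 on high-fat and 9.45 on normal diet. The week 8 gap of Psmb5 rests largely on high-fat replicate 1 (9.86, against 10.45 and 10.39 on the other high-fat arrays).

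Second probes gave like average differences for some of these genes (adjusted over all detected probes). Those of Psma7 (-0.17, adjusted p = 0.00677), Psmc5 (-0.15, adjusted p = 0.00829) and Psmd14 (-0.17, adjusted p = 0.0338) were lower too, and the 4 probes of Psmb7 ran from -0.16 to -0.08. The second probe of Psmd11 differed by -0.03 (adjusted p = 0.831). In all, 3 of 14 members with several detected probes had probes of opposite sign on average (Psmd1, Psmd9 and Psmd12), against 35.4% of the 3581 such genes. Without the week 24 arrays 7 members fell, where 15.3% of all genes passed, and without the low week 8 array 8 fell, where 28.6% passed. When arrays were aligned only by their medians (a median shift, not quantile normalization) 21 fell and 0 rose, while the median of all genes was then -0.07 and 24% of all genes were lower.

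Markers of some other cells also differed by diet, set here against 15.4% of all genes higher on high-fat diet. Macrophage markers were higher in 10 of 11 measured cases (median 0.44), and their summed intensity was 10700 to 11300 on high-fat against 3700 to 4540 on normal diet at week 24, 6010 to 8610 against 5660 to 6000 at week 20, and 3260 to 4560 against 2320 to 2450 at week 4. At week 8 these sums overlapped, 3230 to 3980 on high-fat and 3490 to 4300 on normal diet. The macrophage markers Cd68, Fcgr1 and Itgam were not measured. Endothelial markers were higher in 7 of 10 cases (median 0.21) and white adipocyte markers in 4 of 6 (median 0.58). Skeletal muscle markers were higher in 2 of 16 (median 0.24) and brown adipocyte markers in 2 of 8 (Fabp3 and Pdk4, median 0.05). Beside the share of all genes these 2 counts are small and are not read as a change of those cells. Of the lymphocyte and red blood cell markers, 0 of 3 and 0 of 5 passed in limma (0 at an unadjusted p under 0.05). With the macrophage mean as a covariate, chosen after seeing the data, 0 of 29 members passed in limma (10 at an unadjusted p under 0.05), with a member median of -0.17, and 1.12% of all genes passed. With the skeletal muscle mean as a covariate 7 members fell, where 25.3% of all genes passed.

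Genes around the proteasome gave a mixed picture under high-fat diet. All 3 immunoproteasome genes rose on average, Psmb8 by 0.53 (SE 0.091, adjusted p = 9.19e-05), Psmb9 by 0.52 (SE 0.11, adjusted p = 0.000723) and Psmb10 by 0.31 (SE 0.076, adjusted p = 0.00311), opposite in sign to the cutting subunits they replace. By week, 3 of 3 rose at week 2 (1.13% of all genes), 1 of 3 at week 4 (0.727%) and 0 of 3 at weeks 8, 20 and 24. Their medians were 0.80, 0.83, 0.53, -0.24 and 0.42 at weeks 2, 4, 8, 20 and 24. The macrophage markers had medians of 0.31 at week 2 and 1.24 at week 24. With the macrophage covariate Psmb8 stood at -0.07, Psmb9 at -0.13 and Psmb10 at 0.03, and none of the 3 calls held. Nfe2l1 rose by 0.22 (SE 0.037, adjusted p = 9.51e-05), the 1 riser of 5 measured genes of its pathway. Its call was lost with a median shift (0.07, adjusted p = 0.283) and with the macrophage covariate (0.26, adjusted p = 0.208), while Nfe2l2, its relative, differed by -0.02 (SE 0.062). Of 4 core assembly chaperones 0 passed in limma (1 at an unadjusted p under 0.05), as did 0 of 4 activators (2 at that p). Pomp, which completes core assembly, differed by -0.06 (SE 0.046, adjusted p = 0.396), Psmg1 by -0.12 (SE 0.046) and the activator subunit Psme1 by -0.13 (SE 0.048, adjusted p = 0.0515).

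Lists of related genes are set here against 11.7% of all genes lower and 15.4% higher on high-fat diet. Of 8 measured proteasome-bound receptors and deubiquitinases 2 fell, the shuttle receptors Ubqln1 (-0.15, SE 0.047) and Rad23b (-0.18, SE 0.065), and 0 rose. Of 7 ubiquitin and ubiquitin-transfer genes, the E2 enzyme Ube2n rose by 0.20 (SE 0.05), while the E2 enzyme Ube2g2 (-0.31, SE 0.075) and the E1 enzyme Uba6 (-0.30, SE 0.11) fell. Of 10 genes of the p97 segregase and of degradation from the endoplasmic reticulum 4 fell and 0 rose. These were the p97 cofactors Ufd1 (-0.22, SE 0.045) and Nploc4 (-0.14, SE 0.036), the membrane protein Herpud1 (-0.23, SE 0.048) and the ubiquitin ligase Syvn1 (-0.12, SE 0.042). The p97 gene Vcp differed by 0.06 (SE 0.041).

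**Figure D3:**
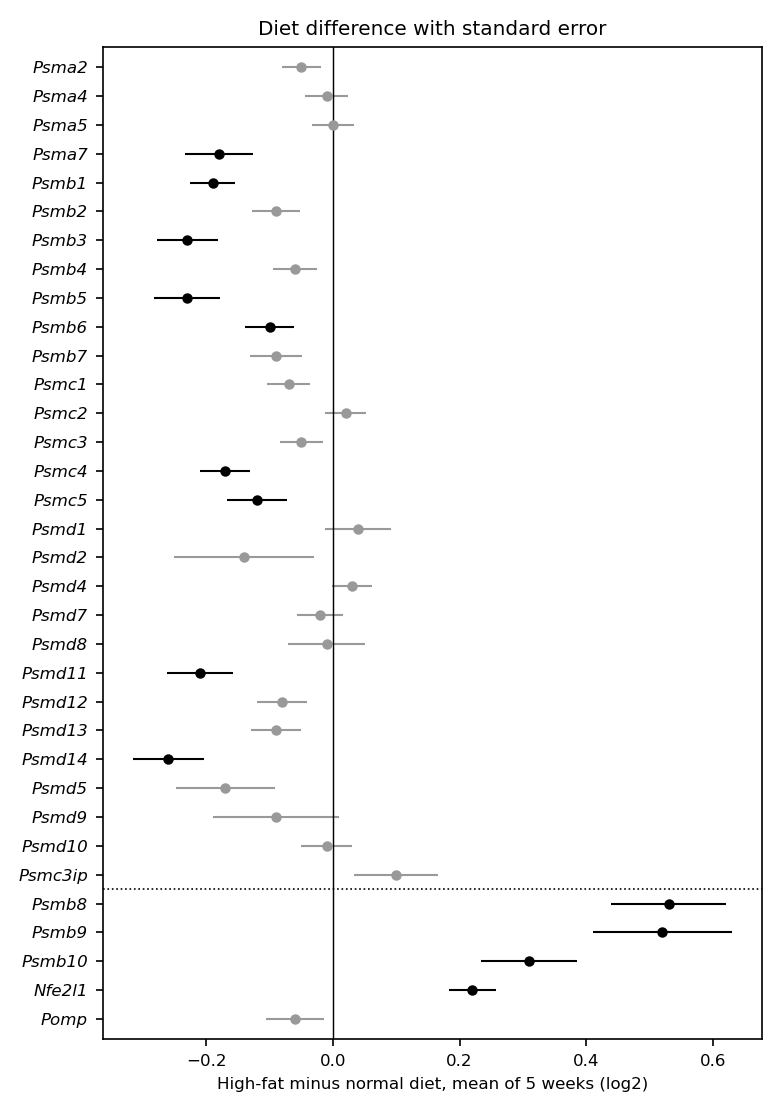
Mean over 5 weeks of high-fat minus normal diet (log2 units, bars are standard errors of the fit) for the 29 genes above the dotted line and for 3 immunoproteasome genes, Nfe2l1 and Pomp below it; black marks passed. The 9 black marks above the line are all below 0, and Psmb8, Psmb9, Psmb10 and Nfe2l1 are above 0.

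Single weeks resolved few of these differences. At week 2, 0 of 29 members passed in limma (3 at an unadjusted p under 0.05), where 1.9% of all genes passed (0.768% lower and 1.13% higher), and 22 of 29 differences were below 0. The 2 smallest p belonged to the beta subunit Psmb1 and the lid subunit Psmd13. Psmb1 stood at 11.76, 11.8 and 11.8 on high-fat against 12.01, 11.98 and 12.01 on normal diet, a difference of -0.21 (SE 0.081, adjusted p = 0.204), with no overlap between the groups. Psmd13 differed by -0.18 (SE 0.089, adjusted p = 0.338). Groups did not overlap in 9 members lower on high-fat diet (11.5% of all genes) and in 1 higher, Psmd8 (12.2%).

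At week 4, 0 of 29 passed in limma (3 at an unadjusted p under 0.05), against 1.19% of all genes (0.467% lower and 0.727% higher). Psmd2 was detected on all 3 high-fat arrays (6.11, 6.31 and 6.18) and on 0 of 3 normal diet arrays (5.69, 5.6 and 5.5, not well above background). The measured high-fat mean was at least 1.09-fold higher, but the difference did not pass (adjusted p = 0.254). Here and below, such a bound sets the bright group against the lowest detected signal of the dim arrays, or the probe's own value where that is higher. It compares means and takes no account of the spread between arrays. Psmd7, a lid subunit, stood at 10.94, 10.8 and 10.88 on high-fat against 10.98, 11.14 and 11.09 on normal diet, a difference of -0.19 (SE 0.081, adjusted p = 0.295). Groups did not overlap in 7 members lower (12.9% of all genes) and 2 higher, Psma4 and Psmd2 (12%).

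At week 8, 1 of 29 passed, against 2.1% of all genes (1.17% lower and 0.924% higher). This was the chaperone Psmd9, whose brighter probe was not well above background on high-fat diet (5.43, 5.32 and 5.8) and was detected on all normal diet arrays (6.58, 6.22 and 6.42). That probe was at least 1.19-fold lower on high-fat diet (group means 5.52 and 6.41, adjusted p = 0.0328). The second probe of Psmd9 differed by 0.22 (SE 0.28, adjusted p = 0.741), and the call was lost in 8 of 42 other settings, which gave differences of -1.03 to -0.29. The next smallest p was that of Psmb1, with 11.51, 11.77 and 11.83 on high-fat against 12.02, 11.9 and 12.05 on normal diet and a difference of -0.29 (SE 0.081, adjusted p = 0.0567). Core genes had a median of -0.19, all 11 below 0, and regulatory genes -0.06, all with the low high-fat replicate 1 included. The core deviation of that array from the group mean had a median of -0.2, against 0.12 and 0.11 for replicates 2 and 3. In Psma7 (12.39 and 12.45) and Psmb5 (10.45 and 10.39) these 2 replicates lay within the range of the normal diet arrays. The core and regulatory medians without replicate 1 are not given. Groups did not overlap in 6 members lower (7.56% of all genes) and 0 higher (7.77%). Without high-fat replicate 1 of this week, 0 members passed (4 at an unadjusted p under 0.05), against 1.54% of all genes. The members' median was then -0.08 in place of -0.12. With a median shift 26 members fell, where 38.3% of all genes fell and the median of all genes was -0.31.

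At week 20 the lid genes Psmd11 and Psmd14 were lower on high-fat than on normal diet, 2 of 29 members against 4.66% of all genes (1.62% lower and 3.04% higher). From week 8 to week 20 the mean of Psmd11 went from 8.92 to 9.45 on normal diet and from 8.77 to 8.75 on high-fat diet. That of Psmd14 went from 8.79 to 9.62 on normal diet and from 8.67 to 9.13 on high-fat diet. Psmd11 stood at 8.53, 8.96 and 8.75 on high-fat against 9.57, 9.41 and 9.36 on normal diet, a difference of -0.70 (SE 0.12, adjusted p = 0.000705). Psmd14 stood at 9.05, 9.19 and 9.16 against 9.73, 9.63 and 9.49, a difference of -0.48 (SE 0.13, adjusted p = 0.025). Neither gene's groups overlapped, but their second probes differed by -0.13 (adjusted p = 0.744) for Psmd11 and 0.05 (adjusted p = 0.888) for Psmd14. The cutting subunits Psmb5 (-0.36, SE 0.12, adjusted p = 0.0768), Psmb6 (-0.24, SE 0.086) and Psmb7 (-0.18, SE 0.092) did not pass, nor did Psmb8 (-0.25, SE 0.20), Psmb9 (-0.24, SE 0.24), Psmb10 (0.07, SE 0.17) or Pomp at this week, while Nfe2l1 rose by 0.29 (SE 0.084, adjusted p = 0.0456), a call lost in 28 of 42 other settings. Groups did not overlap in 7 members lower (10.2% of all genes) and 1 higher, Psmd10 (14.2%). Without the low week 8 array 5 members were lower, Psma7, Psmb5 and Psmb6 being added, where 7.91% of all genes passed. In a fit of the 6 arrays of week 20 alone 0 passed (6 at an unadjusted p under 0.05), against 0.363% of all genes.

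At week 24, where 20.4% of all genes differed by diet (7.64% lower and 12.7% higher), 2 of 29 members did, both lower. Psmb3 stood at 12.86, 12.67 and 12.82 on high-fat against 13.24, 13.1 and 13.14 on normal diet, a difference of -0.38 (SE 0.11, adjusted p = 0.0129). The lid scaffold gene Psmd12 stood at 11.11, 11.39 and 11.15 against 11.4, 11.54 and 11.52, a difference of -0.27 (SE 0.088, adjusted p = 0.0276), the highest high-fat array lying just under the lowest normal diet array. The Psmd12 call was lost in 7 of 42 other settings (differences of -0.36 to -0.15), among them the fit of the 6 arrays of that week and the mean of probes. Groups did not overlap in 8 members lower (17% of all genes) and 1 higher, Psma5 (20.6%). Summed macrophage signal differed most between diets at this week (above), and its part in these differences was not tested. The count was 7, with 1 higher, without high-fat replicate 1 of week 8, where 25.1% of all genes passed. It was 11, with 2 higher, when arrays were weighted by quality, where 30.9% of all genes passed.

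The diet difference varied over the weeks in 1 member, Psmd11 (limma F test, adjusted p = 0.033), against 6.41% of all genes. Its differences were -0.13, -0.01, -0.15, -0.70 and -0.06 at weeks 2, 4, 8, 20 and 24. The call did not hold in 14 of 43 other settings, the mean of its probes included, and without week 24 0 members passed (3 at an unadjusted p under 0.05) and 1 of 9630 genes did. Psmd9 had the next smallest p (adjusted p = 0.0514).

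Levels changed over the weeks in most members, as in most genes. On high-fat diet 22 of 29 members varied over the 5 weeks (64.4% of all genes), and on normal diet 22 of 29 varied over the 6 time points (66.5% of all genes). Without week 24 these counts were 5 on high-fat (24% of all genes) and 11 on normal diet (36.4%). The smallest adjusted p were 4e-06 for Psmd14 and 1.08e-05 for Psmb5 on high-fat diet, followed by Psmd9, the ATPase Psmc2 and Psmc3ip. Without week 24 the high-fat calls of Psmb5 (adjusted p = 0.456) and Psmc3ip (adjusted p = 0.0856) were lost, and those of Psmd14 (adjusted p = 0.0475), Psmd9 and Psmc2 were not. On normal diet they were 1.5e-06 for Psmd14 and 2.24e-06 for Psmb5, followed by Psmc3ip, the beta subunit Psmb4 and Psmd2, and these 5 also passed without week 24. On normal diet Psmd14 averaged 9.03 ± 0.05 at week 0, 9.05 ± 0.182 at week 2, 9.03 ± 0.0572 at week 4, 8.79 ± 0.289 at week 8, 9.62 ± 0.122 at week 20 and 8.48 ± 0.232 at week 24 (SD, n = 3 each).

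Between weeks 20 and 2, averaged over both diets, 6 members rose (18.2% of all genes) and 1 fell (15.7%), where 33.9% of all genes passed. The risers were in the regulatory particle, apart from Psmc3ip at 0.55 (SE 0.10, adjusted p = 0.00021). They were Psmd14 (0.41, SE 0.089, adjusted p = 0.000818), Psmd12 (0.24, SE 0.062), Psmd11 (0.22, SE 0.082) and the ATPases Psmc2 (0.17, SE 0.051) and Psmc1 (0.16, SE 0.054). Psmd11 was higher in week 20 on normal diet only (means of 8.95 in week 2 and 9.45 in week 20), with 8.82 and 8.75 on high-fat diet. On the average of both diets 5 of 14 regulatory genes rose and 0 fell, whereas 0 of 11 core genes rose and 1 fell. That gene was Psmb4, at 13.42, 13.64 and 13.56 in week 20 against 13.82, 13.76 and 13.75 in week 2 on high-fat diet. On normal diet Psmb4 stood at 13.58, 13.43 and 13.47 in week 20 against 13.86, 13.92 and 13.88 in week 2. Its difference was -0.31 (SE 0.055, adjusted p = 9.47e-05), with no overlap on either diet. The difference between core and regulatory genes was not tested. With a median shift 3 members passed, Psmc3ip and Psmd14 higher and Psmb4 lower, where 26.7% of all genes passed. With the mean of probes 8 members passed, where 34% of all genes did. The core gene Psmb7 and the base gene Psmd1 were then among them, and Psmc2 was not. The members' median was -0.02 in that setting, with 15 members below 0, in place of 0.06 and 12. Psmd11 lost its call in 11 of 42 settings.

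Between weeks 24 and 20 the members moved both ways: 11 rose (32% of all genes) and 8 fell (23.7%; 55.7% of all genes passed), with a median of 0.05 against 0.06 for all genes. Psmb5 rose by 0.63 (SE 0.083, adjusted p = 4.99e-07). It stood at 11.09, 11.05 and 11.09 in week 24 against 10.58, 10.44 and 10.22 in week 20 on high-fat diet, and at 11.45, 11.29 and 11.38 against 10.98, 10.7 and 10.63 on normal diet, with no overlap. Psmc3ip (0.47, SE 0.10), the lid subunit Psmd8 (0.42, SE 0.096) and Psmb1 (0.37, SE 0.058) also rose. Psmd14 fell by 1.06 on the log2 scale (SE 0.089, adjusted p = 1.65e-10), to 8.18, 8.13 and 8.12 on high-fat and 8.21, 8.6 and 8.63 on normal diet, each below every week 20 array of its diet. The brighter probe of Psmd9 was not well above background on any of the 6 week 24 arrays and was at least 1.44-fold lower than in week 20 (adjusted p = 1.86e-05). Its second probe went the other way: it was detected on all 6 week 24 arrays and rose by 0.65 (SE 0.20, adjusted p = 0.00717), so the direction for this gene is not settled. Psmc5 and Psma7 fell by 0.35 each (SE 0.074 and 0.085). Of the other cutting subunits, Psmb6 differed by 0.05 (SE 0.061) and Psmb7 fell by 0.16 (SE 0.065, adjusted p = 0.0429). With a median shift 23 members rose and 2 fell, where 62.3% of all genes rose, 10.2% fell and the median of all genes was 0.37. Psma7, Psmb7 and Psmc5 then stood at 0.11, 0.26 and 0.10. All week 24 arrays stand apart from the rest, and week cannot be told apart from anything else those arrays share.

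The probes of a gene often disagreed on this step. Of the 14 members with several detected probes, 9 had probes of opposite sign between weeks 24 and 20 (47.3% of the 3581 such genes), and in 5, Psmc2, Psmc5, Psmd7, Psmd8 and Psmd9, probes passed in opposite directions (14.6%). Between weeks 20 and 2 these counts were 3 of 14 (40.5%) and 0 of 14 (2.35%). The brighter probe of Psmc2 rose by 0.19 (SE 0.053), whereas its second probe was detected on 0 of 6 arrays in week 24. The levels of that second probe were 5.03 to 5.49 in week 24 against 7.14 to 7.73 in week 20, which makes it at least 2.7-fold lower in week 24 (adjusted p = 7.82e-14).

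The second probe of Psmd11 read 4.78 to 5.23 in week 24, below detection, against 6.94 to 7.24 in week 20 and was at least 2.15-fold lower, while the brighter probe differed by -0.02 (SE 0.083). For Psmd12 the second probe was below detection at 5.17 to 5.59 against 6.65 to 7.57 and at least 2.17-fold lower, while the brighter fell by 0.34 (SE 0.064). These 3 second probes were among 44 member probes detected on all 27 arrays of weeks 0 to 20 and were detected on 0 of 6 arrays in week 24. Over the whole array 64 of 11811 such probes (0.542%) did the same. Psmd14 was lower with both probes, by -1.06 and -1.91, and Psmc5 split evenly, at -0.35 (SE 0.075) and 0.35 (SE 0.065).

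**Figure D4:**
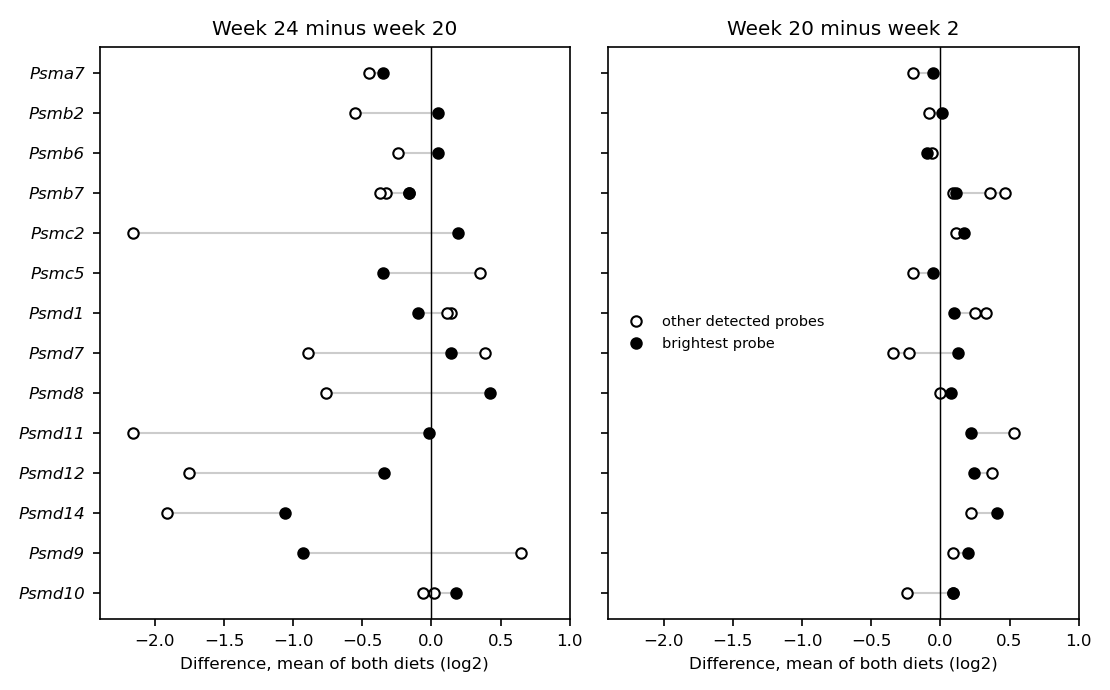
Difference between weeks (log2 units, mean of both diets) for each detected probe of the 14 members with several, week 24 minus week 20 on the left and week 20 minus week 2 on the right; filled circles are the brightest probe, open circles the others. On the left the second probes of Psmc2, Psmd11 and Psmd12 lie far below 0; they were below detection in week 24, so their plotted place rests on background signal and only the bounds in the text (at least 2.7-, 2.15- and 2.17-fold lower) apply.

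Genes around the proteasome also moved both ways on this step. Between weeks 24 and 20, 5 of 8 proteasome-bound receptors and deubiquitinases fell and 2 rose, where 23.7% of all genes fell and 32% rose. The probe used for Usp14, a deubiquitinase that docks on the base, was not well above background on any week 24 array (5.2 to 5.82, against 7.03 to 7.68 in week 20) and was at least 2.74-fold lower (adjusted p = 1.38e-11). Uchl5, another docked deubiquitinase, fell by 0.87 (SE 0.086) and Sem1, the smallest lid protein, by 0.47 (SE 0.076), while the shuttle receptor Ubqln1 rose by 0.39 (SE 0.074). The E1 enzyme gene Uba6 fell by 1.25 (SE 0.17). Of 4 core assembly chaperones 2 rose, Psmg3 by 0.50 (SE 0.11) and Psmg2 by 0.37 (SE 0.078), and Pomp differed by 0.07 (SE 0.073). None of the 3 immunoproteasome genes passed in limma (0 at an unadjusted p under 0.05), with Psmb8 at 0.22 (SE 0.14), Psmb9 at 0.04 (SE 0.17) and Psmb10 at 0.06 (SE 0.12). Nfe2l1 differed by -0.14 (SE 0.059, adjusted p = 0.0508).

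Within groups, pairs of core genes had higher correlations than pairs of regulatory genes, and this rested on 1 array. Over deviations from the group means on all 33 arrays, the median correlation was 0.39 over 55 pairs of core genes, 0.06 over 91 pairs of regulatory genes, 0 over 154 mixed pairs and 0 over pairs of all genes. Without high-fat replicate 1 of week 8 the core median was 0.04, and leaving out any other array gave 0.32 to 0.43. Over the 11 group means the medians were 0.34 for core pairs, 0.02 for regulatory pairs and 0.01 for all genes. All these values share the arrays and their quantile normalization and are given as a description.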

How the data were processed

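RNA of 33 samples was hybridised to Illumina bead arrays. The authors deposited probe intensities and a detection p-value per probe, made with BeadStudio 3.1.3 per the submitters' processing notes; the deposited normalized values on the log2 scale served only as an alternative. Of 45281 probes, 34885 had 1 gene symbol in the platform annotation, 18 had several and 10378 had none; 34807 symbols were updated by Entrez ID. Intensities were background-corrected from the detection p-values (nec) and quantile-normalized with an offset of 16 (limma 3.58.1 in R 4.3.3; tables were read by the package data.table, version 1.17.8), and 17243 probes with a detection p under 0.01 on at least 3 arrays were kept, the brightest per gene. One limma fit of the 11 groups (lmFit and eBayes, 22 residual and 4.13 prior degrees of freedom) gave all differences and F tests, with Benjamini-Hochberg adjustment over all 9630 genes at 0.05. The number of arrays, 3 per group, limits the precision. Figures were drawn with matplotlib 3.10.9. The scripts were tested on simulated data.

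The members and lists were chosen with earlier results of these data known. Named members are, per comparison, up to 4 rising and 4 falling by size past the threshold (F tests up to 5 by p; with under 2 passed, the 2 smallest p), plus Psmb5, Psmb6, Psmb7, Nfe2l1, Pomp and the immunoproteasome genes, and up to 4 per pathway list by p. Alternatives were other background correction, scaling, filters, probe averaging, a replicate block, array weights, covariates and leaving out arrays. Replicate numbers showed no sign of pairing samples: same-numbered arrays deviated with r of -0.11 to 0.13 over 15 pairs. Whether the numbers stand for a pairing is not stated.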

Additional observations from a re-analysis of the deposited data

Results flagged for a closer look

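The diet difference of Psmd11 differed between weeks by a test of that difference itself (limma F test of the diet by week interaction, adjusted p = 0.033): it was -0.70 at week 20 and between -0.15 and -0.01 at the other weeks. The second probe of this gene differed by -0.13 at week 20 (adjusted p = 0.744).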

How the results depend on the processing

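Counts of members past the threshold changed with several settings, and so did the share of all genes past it, given in brackets. With a median shift they were 21 for the diet average (32.2%), 26 at week 8 (38.7%), 5 at week 20 (3.87%), 1 at week 24 (19.2%), 10 for the interaction (18.9%) and 3 for week 20 minus week 2 (26.7%). With array weights they were 0 at week 8 (4.2%), 5 at week 20 (5.41%), 11 at week 24 (30.9%) and 2 for the interaction (16.9%). Without background correction week 24 had 5 (21.3%), and with the authors' deposited values week 8 had 2 (2.47%). With the mean of probes week 20 had 1 (4.64%) and the interaction 0 (6.44%). The interaction had 0 with no detection filter (2.89%) and 2 with detection required on all 3 arrays of a group (6.92%). The 6 arrays of a week alone gave 0 at weeks 8 (0.0104%) and 20 (0.363%). Chosen after seeing the data, the macrophage covariate gave 0 for the diet average (1.12%), and the interaction without week 24 gave 0 (0.0104%). Without week 24 the weeks counted 5 on high-fat (24%) and 11 on normal diet (36.4%).

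Leaving out 1 array gave 7 to 10 for the diet average, 0 at weeks 2 and 4, 0 to 4 at week 8, 1 to 5 at week 20, 1 to 7 at week 24, 0 to 2 for the interaction, 16 to 23 for high-fat weeks, 19 to 24 for normal diet weeks, 5 to 9 for week 20 minus week 2 and 16 to 20 for week 24 minus week 20. Of these runs, shares of all genes are given only for that without high-fat replicate 1 of week 8. They were 28.6% for the diet average, 1.54% at week 8, 7.91% at week 20 and 25.1% at week 24. With a replicate block, which rests on a shared number only, the interaction had 2 (6.03% of all genes), the diet average 8 (26.7%) and week 24 3 (19.8%).

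Signs reversed in few cases, and the cause was not tested. The diet difference of Pomp at week 20 was 0.04 and 0.03 without replicate 3 of normal or high-fat diet, and that of Psmb10 was -0.04 with a median shift and, leaving out 1 array, -0.03 to 0.17. Psmb8 and Psmb9 on average were -0.07 and -0.13 with the macrophage covariate. For week 24 minus week 20, a median shift gave 0.26 for Nfe2l1, 0.11 for Psma7, 0.26 for Psmb7 and 0.10 for Psmc5, the mean of probes gave -0.09 for Psmb6 and -0.17 for Psmd8, and Psmb9 was -0.03 without high-fat replicate 3 of week 24. For probes below detection in a group, only bounds are given.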
